A study of Mus musculus with 2 samples.

Results

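The Mir26 genes are Mir26b, Mir26a-1 and Mir26a-2, 3 of the 2202 microRNA genes counted in mouse left cerebral cortex. They were found in both count tables by their GENCODE M21 gene names, and each name matched a single row. The samples came from female B6CASTF1/J mice, an F1 hybrid strain, aged 25 days, with no treatment or altered gene named. RNAs under 30 nt were sequenced in 2 libraries of this 1 group, labelled biological replicates 1 and 2. Both libraries carry the same donor record, although the labels number the animals separately, so differences between them may be technical. No condition was set against another, and the values below describe levels in this tissue and the difference between these libraries.

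MicroRNAs are cut from hairpin transcripts into short strands that guide silencing of messenger RNAs, chiefly through the seed, bases 2 to 8 of the strand. The miR-26 family is known from neuronal differentiation. Its genes lie inside Ctdsp1, Ctdsp2 and Ctdspl, which encode small C-terminal domain phosphatases. These enzymes act on RNA polymerase II and on REST, a repressor of neuronal genes, and miR-26 is known to repress Ctdsp2 during neural differentiation.

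The mature strands are shown because 2 of the genes share one, which bears on how their reads can be counted. In each line the seed is in capitals, and the sequences are those of RefSeq on GRCm38.p6.

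miR-26a-5p, from Mir26a-1 and from Mir26a-2: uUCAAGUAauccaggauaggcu

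miR-26b-5p, from Mir26b: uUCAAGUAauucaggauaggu

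miR-26a-1-3p: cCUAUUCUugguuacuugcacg

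miR-26a-2-3p: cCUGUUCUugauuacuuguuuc

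miR-26b-3p: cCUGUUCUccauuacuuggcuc

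The 5p strands carry a single seed, and among 1738 mature entries of the RefSeq table no gene outside the 3 members carried it. Mir26a-1 and Mir26a-2 give the same 5p strand of 22 nt. The 5p strand of Mir26b has 21 nt and differs from miR-26a-5p by C11U and C21U, counted from 1 at the 5′ end with the base of miR-26a-5p first. The 3p strands are less alike. From miR-26a-1-3p to miR-26a-2-3p there are 6 substitutions, namely A4G, G11A, C19U, A20U, C21U and G22C. From miR-26a-2-3p to miR-26b-3p there are 4, namely U9C, G10C, U19G and U20C, and these strands share a seed.

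The hairpins place these strands in their longer context, with both mature arms in capitals.

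Mir26b: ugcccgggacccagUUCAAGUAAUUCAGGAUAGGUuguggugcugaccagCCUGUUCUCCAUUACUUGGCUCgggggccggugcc

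Mir26a-1: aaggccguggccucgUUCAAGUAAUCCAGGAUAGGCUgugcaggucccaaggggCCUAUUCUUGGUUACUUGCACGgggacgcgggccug

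Mir26a-2: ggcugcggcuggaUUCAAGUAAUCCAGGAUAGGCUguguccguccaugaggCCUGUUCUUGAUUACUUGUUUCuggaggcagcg

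In global alignments 72.5% of columns were identical between Mir26a-1 and Mir26a-2, 68.5% between Mir26a-1 and Mir26b, and 66.3% between Mir26a-2 and Mir26b. Both Mir26a hairpins hold the same unbroken stretch of 25 nt, the whole 5p strand and the 3 bases after it, uucaaguaauccaggauaggcugug. The longest stretch that Mir26b shares with either of them is 11 nt. A read of miR-26a-5p therefore matches Mir26a-1 and Mir26a-2 letter for letter. Where no mismatch is allowed, a read of miR-26b-5p matches Mir26b alone among the counted hairpins.

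**Figure D1:**
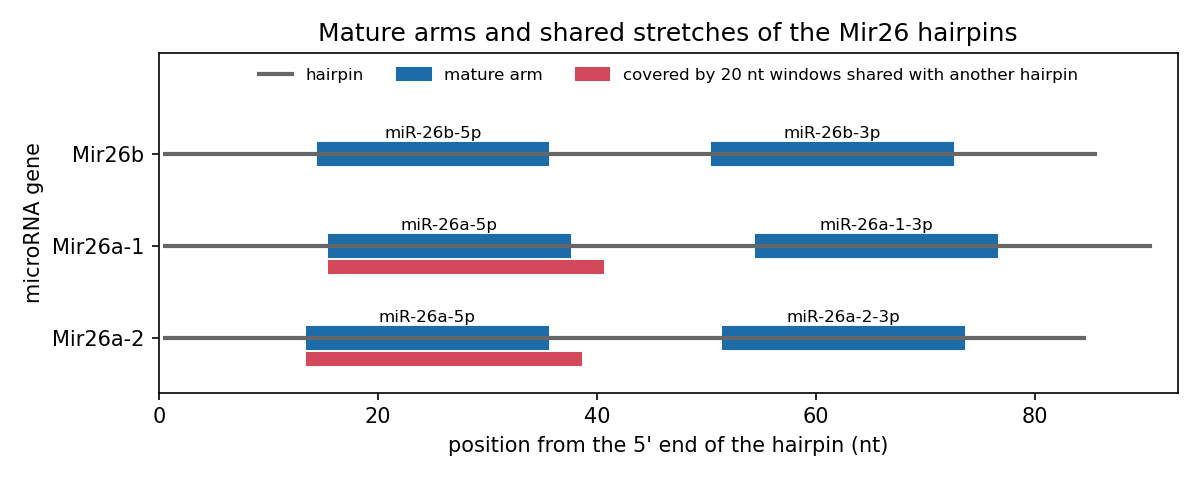
Map of the Mir26 hairpins. The x axis is the position in nt from the 5′ end of each hairpin, grey lines are hairpins, blue boxes are mature arms, and red bars mark bases covered by 20 nt windows also found in another counted hairpin. The red bar covers 25 nt over miR-26a-5p in Mir26a-1 and in Mir26a-2, and Mir26b has none.

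All members lie on the plus strand, in the direction of their host genes, on mm10. Mir26b (ENSMUSG00000065468.1, chr1:74394310-74394394) sits in intron 4 of 6 of Ctdsp1. That intron is 564 nt long, and the hairpin starts 234 nt after the upstream exon. Mir26a-1 (ENSMUSG00000065513.1, chr9:119031796-119031885) sits in intron 5 of 7 of Ctdspl, an intron of 3283 nt, with 1543 nt before it and 1650 nt after it. Mir26a-2 (ENSMUSG00000065430.1, chr10:126995530-126995613) sits in intron 5 of 7 of the long coding transcript of Ctdsp2, an intron of 1946 nt, 241 nt before the next exon. These introns refer to Ctdsp1-201, Ctdspl-201 and Ctdsp2-202. The transcripts Ctdsp2-201 and Ctdsp2-203 are annotated from 126995613, so the last base of the Mir26a-2 hairpin is also the first base of an exon. The RefSeq promoter window of that Ctdsp2 start (chr10:126995363-126995662) holds the Mir26a-2 hairpin whole. No other annotated gene overlaps a member.

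Windows of 20 nt were slid along each hairpin and looked up in all 2202 counted hairpins on both strands. Of the 66 windows of Mir26b none was found in another hairpin. In Mir26a-1, 65 of 71 windows (91.5%) were found in no other hairpin, and in Mir26a-2 59 of 65 (90.8%). The other 6 windows in each were shared between these 2 genes. Within the 5p arm all 3 windows of each Mir26a gene were shared, and within the 3p arm none of 3 was. With up to 1 mismatch allowed, 97.0% of windows of Mir26b were found in no other hairpin, 88.7% of Mir26a-1 and 87.7% of Mir26a-2. The Mir26b windows with such a near match, at bases 14 to 33 and 15 to 34, lie over its 5p arm. The genome itself was not searched.

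Mir26b supplied nearly all Mir26 counts in both libraries, and the Mir26a genes gave few. Mir26b had 17322 own-strand counts in replicate 1 and 12960 in replicate 2. In CPM, the count per 1000000 own-strand microRNA gene counts of a library, this was 5741 (exact binomial 95% interval 5656 to 5827) and 4038 (3969 to 4108), with a mean of 4890 ± 1204 CPM (SD, n = 2). It ranked 38 among the 2202 genes by mean CPM and held 0.489% ± 0.120 of microRNA gene counts. Both libraries thus placed Mir26b among the abundant genes of the cortex, at rank 30 in replicate 1 and rank 39 in replicate 2.

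Mir26a-1 had 213 counts in replicate 1 and 25 in replicate 2. Its level was 70.6 CPM (61.4 to 80.7) in replicate 1 and 7.79 CPM (5.04 to 11.5) in replicate 2, a mean of 39.2 ± 44.4 CPM at rank 244. Mir26a-2 had 121 and 32 counts. Its level was 40.1 CPM (33.3 to 47.9) and 9.97 CPM (6.82 to 14.1), a mean of 25.0 ± 21.3 CPM at rank 263. Both were low and far apart between the libraries, yet each passed the minimum of 10 counts in both, as did 395 of the 2202 genes. All 3 members are among these 395. The limit that a count of 0 allows was 0.994 CPM in replicate 1 and 0.935 CPM in replicate 2 (3 counts), well under each member.

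The order of the mean levels was Mir26b, Mir26a-1, Mir26a-2. Counts were not divided by length. The hairpins are 84 to 90 nt long, and a read covers 1 mature strand and not the hairpin. Mir26b had 81.3 times the counts of Mir26a-1 in replicate 1 (interval 71.04 to 93.5) and 518 times in replicate 2 (351 to 801). Against Mir26a-2 it had 143 times the counts in replicate 1 (120 to 173) and 405 times in replicate 2 (287 to 592). The step from Mir26b to the Mir26a genes held in both libraries, with no overlap of levels. Mir26a-1 and Mir26a-2 did not differ beyond their spread. Mir26a-1 was the higher of them in replicate 1, and Mir26a-2 had more counts in replicate 2, where their intervals overlap.

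Together the members held 5852 CPM in replicate 1 and 4056 CPM in replicate 2, or 4954 ± 1270 CPM. Mir26b made up 98.1% of that sum in replicate 1 (exact 95% interval 97.9 to 98.3) and 99.6% in replicate 2 (99.4 to 99.7). Mir26a-1 made up 1.21% (1.05 to 1.38) and 0.192% (0.124 to 0.283), and Mir26a-2 0.685% (0.569 to 0.818) and 0.246% (0.168 to 0.347). Within the summed Mir26a counts, 334 in replicate 1 and 57 in replicate 2, Mir26a-1 held 63.8% (58.4 to 68.9) and 43.9% (30.7 to 57.6). The makeup of the family as counted thus differed between libraries by more than counting error.

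These are levels of genes as counted, not of mature strands, since the tables give 1 number per hairpin for its 5p and 3p strands. They also give, outside the genes, the number of reads that mapped to more than 1 locus. That class held 3425133 reads in replicate 1 (40.3% of all reads) and 3621909 in replicate 2 (39.0%). How many of them were miR-26a-5p was not analysed here. The Mir26a values hold none of them, so a lower level of the Mir26a genes and reads set aside for matching both genes cannot be told apart. Exact reads within miR-26a-5p match both Mir26a genes and are thus outside their values, while Mir26b can hold reads of its own 5p strand. The ratios of Mir26b to the Mir26a genes may therefore set unlike strands side by side.

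**Figure D2:**
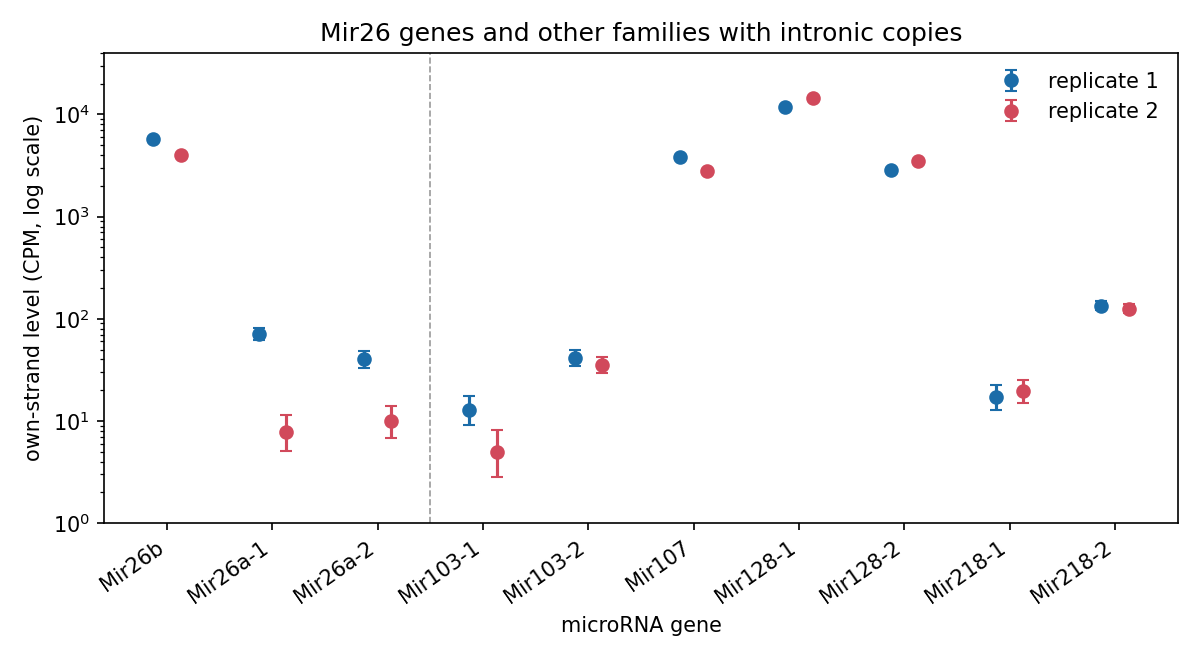
Own-strand level of each gene in CPM on a log scale, for the Mir26 genes left of the dashed line and 3 other families with intronic copies right of it. Points are single libraries, blue for replicate 1 and red for replicate 2, and bars are exact 95% binomial intervals. Mir26b lies at 5741 and 4038 CPM and both Mir26a genes lie under 100 CPM.

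The libraries were then compared gene by gene with a two-sided exact binomial test, given library sizes scaled by TMM (trimmed mean of M values), over the 496 genes with at least 10 counts in total. This test compares 2 libraries and their counting noise, and not conditions or animals. All 3 members were called at a Benjamini-Hochberg adjusted p under 0.05, each higher in replicate 1. Such calls were common, at 56.5% of tested genes in either direction, 30.6% higher in replicate 1 and 25.8% higher in replicate 2. The log2 ratios below are replicate 2 over replicate 1.

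Mir26a-1 fell by 3.41 on the log2 scale from replicate 1 to replicate 2 (95% counting interval -4.07 to -2.81, exact binomial test, adjusted p = 1.68e-47). It was 10.6-fold higher in replicate 1, with an interval of 6.9998 to 16.8. Of the 496 tested genes 1 had a more extreme ratio in this direction, Gm25745, with 10 counts in replicate 1 and 0 in replicate 2. Mir26a-1 therefore had the largest ratio toward replicate 1 of all tested genes with counts in both libraries.

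Mir26a-2 fell by 2.24 (interval -2.85 to -1.66, exact binomial test, adjusted p = 1.62e-17) and was 4.71-fold higher in replicate 1. Its ratio was the ninth most extreme in that direction. Mir26b fell by 0.74 (interval -0.77 to -0.70) and was 1.67-fold higher in replicate 1. The p-value for Mir26b was too small for the software to hold. The absolute log2 ratio of Mir26b exceeded that of 63.9% of tested genes, against 98.6% for Mir26a-1 and 95.8% for Mir26a-2. The median absolute ratio of all tested genes was 0.53.

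Both Mir26a genes were called at 2-fold or more higher in replicate 1, and 7.66% of tested genes were. Among the 99 tested genes with 50 to 250 counts in total, a range chosen around the Mir26a totals after they were seen, 24 differed over 2-fold. The median absolute log2 ratio of the 99 genes was 0.60, and Mir26a-1 had the highest. The intervals of Mir26a-1 and Mir26b do not overlap, nor do those of Mir26a-2 and Mir26b, while those of the Mir26a genes meet between -2.85 and -2.81. Scaling by library totals in place of TMM left all members called and higher in replicate 1, at -3.18 for Mir26a-1, -2.01 for Mir26a-2 and -0.51 for Mir26b. Over all genes it raised every log2 ratio by 0.23 and moved the calls from 152 higher in replicate 1 and 128 higher in replicate 2 to 102 and 180.

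**Figure D3:**
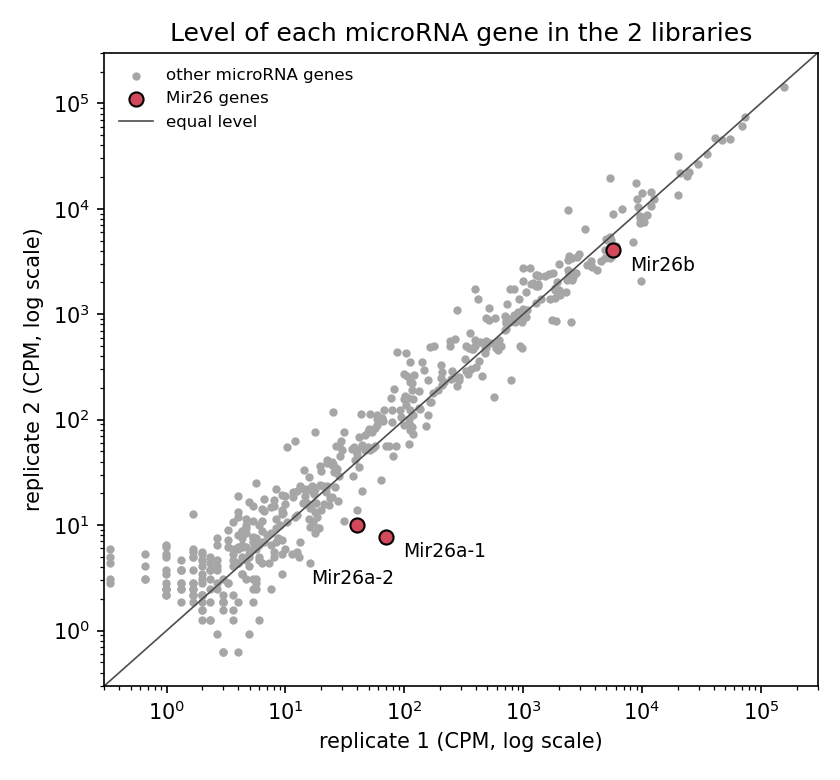
Level of each microRNA gene in replicate 1 (x axis) and replicate 2 (y axis), both in CPM on log scales, for genes with at least 10 counts in total and counts in both libraries. The line marks equal levels. Mir26a-1 and Mir26a-2 lie at the outer edge of the points below the line, and Mir26b lies among them.

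Families built in a like way were set beside Mir26 by their values. Mir103-1, Mir103-2 and Mir107 lie in introns of the Pank pantothenate kinase genes, Mir128-1 and Mir128-2 in R3hdm1 and Arpp21, and Mir218-1 and Mir218-2 in the axon guidance genes Slit2 and Slit3. The first trio comes closest to Mir26 in sequence, since a pair of loci gives 1 mature strand and the third gene differs from it by G22C, from miR-103-3p to miR-107-3p.

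miR-103-3p, from Mir103-1 and from Mir103-2: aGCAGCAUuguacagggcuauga

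miR-107-3p, from Mir107: aGCAGCAUuguacagggcuauca

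miR-128-3p, from Mir128-1 and from Mir128-2: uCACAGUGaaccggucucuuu

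Mir107 had 11520 and 8934 counts in replicates 1 and 2, against 39 and 16 for Mir103-1 and 125 and 114 for Mir103-2. As in Mir26, the gene with a strand of its own stood at 3301 ± 732 CPM and the pair with a shared strand at 8.96 ± 5.62 and 38.5 ± 4.18 CPM. The likeness is partial, since Mir107 shares a stretch of 24 nt with each Mir103 hairpin, where Mir26b shares at most 11 nt. Within miR-107-3p 2 of 4 windows of 20 nt were found in no other hairpin, against 2 of 2 within miR-26b-5p. The Mir128 genes went another way. They share miR-128-3p and a stretch of 23 nt, and Mir128-1 stood at 13186 ± 1882 CPM and Mir128-2 at 3186 ± 469 CPM. Their shared stretch ends with the last base of miR-128-3p, base 64 of Mir128-1. That of the Mir26a genes runs on past miR-26a-5p, to base 40 of Mir26a-1, where the strand ends at base 37. Every 20 nt window within miR-128-3p was shared between the Mir128 genes. Within the 5p arms none was, with 2 of 2 windows in Mir128-1 and 4 of 4 in Mir128-2 found in no other hairpin. Which arm gave the counts, and whether reads ran past the end of a strand, was not analysed. Mir218-1 and Mir218-2, which share miR-218-5p, stood at 18.4 ± 1.69 and 130.1 ± 6.36 CPM.

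None of these genes differed between libraries as much as Mir26a-1. Their log2 ratios ran from -1.60 for Mir103-1 to 0.073 for Mir128-2, with 6 of 7 called, 4 higher in replicate 1 and 2 higher in replicate 2, beside 56.5%, 30.6% and 25.8% of all tested genes. With library totals the calls of Mir103-2 and Mir218-2 were lost, at log2 ratios of -0.22 and -0.10, and 4 of 7 remained. Mir107, at -0.68, was close to Mir26b at -0.74. Mir103-1 and Mir103-2 were at -1.60 (interval -2.54 to -0.73) and -0.45 (-0.83 to -0.073). The interval of Mir26a-1 lies below each of theirs. That of Mir26a-2 (-2.85 to -1.66) overlaps the interval of Mir103-1 and lies below that of Mir103-2. Mir218-1 was not called (log2 ratio -0.041, exact binomial test, adjusted p = 0.958).

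MicroRNA genes tied to REST, the repressor on which the host phosphatases act, gave a mixed picture. Of the 13 genes, 9 had at least 10 counts in both libraries and 11 were tested, with 4 called higher in replicate 1 and 5 higher in replicate 2, which is 81.8% in either direction beside 56.5% of all tested genes. The counts of calls were 4 and 5 with library totals too. Their median log2 ratio was 0.33, where the median of all tested genes was 0.0058. The activity-regulated Mir132 had 106051 and 106567 counts, a log2 ratio of -0.31, and its neighbour Mir212 had 2515 and 5591, a ratio of 0.83. Mir9-3 had 259 and 181 counts (-0.83) and Mir9-1 40 and 22 (-1.18). Mir153 had 336 and 1131 counts, a ratio of 1.43 toward replicate 2. Mir29b-1 (0.40), Mir29b-2 (0.56) and Mir135b (0.33) were also called higher in replicate 2. Mir9-2, with 5 and 7 counts, was not called. Mir29a, at 5296 ± 287 CPM, was near Mir26b in level with a ratio of -0.34. The Mir124a genes, classic neuronal microRNAs with several copies, had 0 to 9 counts per library.

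**Figure D4:**
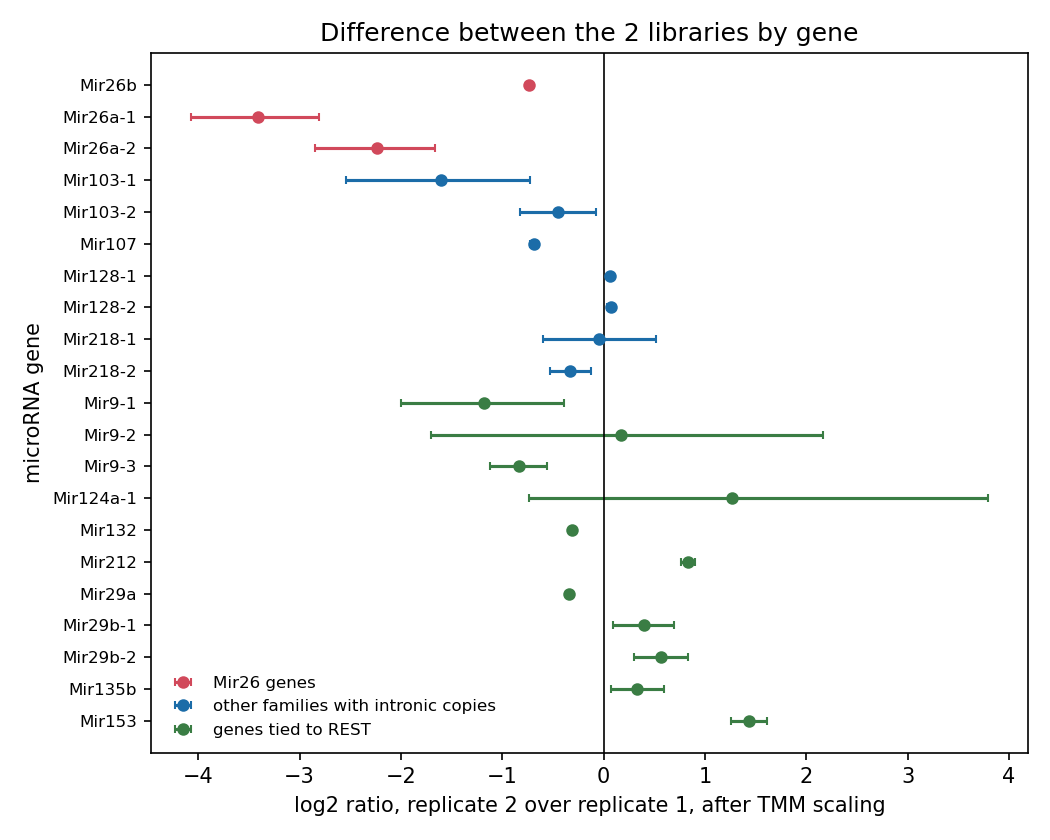
TMM-scaled log2 ratio (x axis, replicate 2 over replicate 1) with its 95% counting interval for the Mir26 genes (red), other families with intronic copies (blue) and genes tied to REST that were tested (green). Mir26a-1 at -3.41 and Mir26a-2 at -2.24 lie farthest to the left.

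Cell type markers were read beside this difference, with levels in CPM over library totals and calls after TMM scaling, which were made for 56.5% of all tested genes. Genes of astrocytes (Mir23b and Mir29a) summed to 29590 CPM in replicate 1 and 25386 in replicate 2, and both were called higher in replicate 1. All 4 microglia and immune genes were called higher in replicate 1, with sums of 2774 and 2345 CPM. With library totals Mir146, at 713.6 and 717.3 CPM, was not called, and neither was the neuronal Mir138-1, at 5132 and 5113 CPM, while no other marker changed its call. All 3 oligodendrocyte genes were called higher in replicate 2, with sums of 3662 and 5626 CPM. Endothelial and mural genes summed to 12012 and 12565 CPM, with 2 called higher in replicate 1 and 1 in replicate 2. These sums hide opposite moves. Mir143 went from 5506 to 3493 CPM (log2 ratio -0.89) and Mir145a from 792 to 237 CPM (-1.97), while Mir126a went from 5714 to 8835 CPM (0.40). Red blood cell genes summed to 51.0 and 75.4 CPM, with Mir451a called higher in replicate 2 (log2 ratio 0.65) and Mir486 and Mir144 not called. The 9 neuronal genes summed to 213555 and 200720 CPM, led by Mir139, with 4 called higher in replicate 1 and 2 in replicate 2. The 3 Mir124a genes, copies of 1 neuronal microRNA, were near 0, with 3, 0 and 5 counts in replicate 1 and 9, 3 and 4 in replicate 2 for Mir124a-1, Mir124a-2 and Mir124a-3. Reads that match more than 1 copy are outside these counts, so they say little of neurons. The part of the cell makeup in the Mir26 ratios was not tested, and in bulk tissue fewer cells of a type and less RNA per cell cannot be told apart.

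The genes most like each member were those at the smallest distance in log2(CPM + 1) over the 2 libraries. Mir26b lay nearest to Mir361 at 5395 and 4144 CPM (distance 0.097), Mir383 at 6079 and 4468 CPM (0.17) and the smooth muscle gene Mir143 at 5506 and 3493 CPM (0.22). Mir26a-1 lay nearest to Mir26a-2 at a distance of 0.86, then to Mir10b (1.11) and Mir669e (1.24). Mir26a-2 lay nearest to Mir669e at 31.2 and 10.9 CPM (0.37), Mir10b at 40.1 and 14.02 CPM (0.45) and Mir26a-1. Mir26b thus had close company in this plane of 2 libraries, and Mir26a-1 had none nearer than 0.86. In the order of mean CPM, Mir26b stood between Mir411 at 5097 ± 154 CPM and Mir92b at 4851 ± 2186 CPM. Mir26a-1 stood between Mir467c and Mir103-2, and Mir26a-2 between Mir504 and Mir503. These neighbours were taken for their adjacent means, so that none differed from its member beyond the spread follows from the choice.

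Since miR-26 is known to repress Ctdsp2, the 3′ UTRs of the host genes were searched for the seed match TACTTGA, the complement of bases 2 to 8, on the transcript strand. Of 20993 protein-coding genes, each taken with its longest annotated 3′ UTR, 2031 (9.67%) held it. Ctdsp2 held 1 match in 3489 nt, Ctdspl none in 3349 nt and Ctdsp1 none in 1701 nt. Longer UTRs hold the match more often. Among genes whose UTR length was within 25% of the host's, the share was 22.6% for Ctdsp2, 21.7% for Ctdspl and 11.0% for Ctdsp1. The match is at bases 1080 to 1086 of the UTR of Ctdsp2-201 (chr10:126997566-126997572, plus strand), shown here with its flanks and the match in capitals.

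Ctdsp2: ccaagtgttgctctTACTTGAtttgccaaa

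The base after the match is not A, so the longer match TACTTGAA, held by 4.19% of genes, was found in none of the hosts. The shorter ACTTGA, held by 31.6%, was found 2 times in Ctdsp2, once within the match above, and in neither of the other hosts. No messenger RNA was measured in these libraries, and a match describes letters only.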

How the data were processed

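Small RNA libraries from 1 group of 2 samples were analysed. The deposited tables hold raw read counts per microRNA gene on mm10 with GENCODE M21, per the README texts deposited with them. For the aligner and the counter, nothing is stated in the labels or README texts. Column roles (either, own and opposite strand) were read from the layout and values, since no header names them. Own-strand counts, 93.8% and 93.7% of both stranded columns, were used, and summed to 3017058 and 3209361 without the 4 read classes (unmapped, several loci, no gene, ambiguous), whose shares of all reads were 18.5%, 40.3%, 5.59% and 0% in replicate 1 and 20.8%, 39.0%, 5.69% and 0% in replicate 2. Intervals are exact (Clopper-Pearson, 95%) and, like the floor of 3 counts, cover counting error only, since PCR reads without molecular identifiers are not independent molecules.

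All 2202 gene identifiers matched M21. Sequences came from the RefSeq table, where 968 of 1005 hairpin symbols matched the tables, and from M21 transcripts. The member hairpins were identical in both. Alleles of the second parental strain were not examined.

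Replicates were compared by the exact binomial test with TMM sizes from edgeR 4.0.16 (R 4.3.3) and, as an alternative, size factors from DESeq2 1.42.0, for genes whose counts in both libraries summed to 10 or more. The test was checked on simulated Poisson counts with known library sizes and without TMM. Such counts vary by counting noise only, so the check does not cover other variation between libraries. Named genes were the members, their hosts, all genes of the marker, REST and intron family lists, and the 3 nearest genes of each member. The members and lists were chosen with earlier results of these data known. Gm25745, Mir411, Mir92b, Mir467c, Mir504 and Mir503 were named after their values were seen. Alternatives were the either-strand column, other scalings and filters, all reads as denominator, other window lengths, 1 mismatch, other seed matches and leaving out each replicate. Python 3.11.15 was used with scipy 1.17.1, pandas 2.3.3, numpy 2.4.6 and, for figures, matplotlib 3.10.9.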

Additional observations from a re-analysis of the deposited data

How the results depend on the processing

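Of 70 alternative values other than leaving out a replicate, 66 stayed within the spread between replicates or the interval of the value, kept direction and call where tested, or, for counts of calls, stayed within 1.5 times, a limit that the change from 152 to 102 genes under library totals nearly reached. Leaving out a replicate says nothing of the stability of levels and shares, since with 2 libraries a mean cannot then move by more than the SD. All 3 members stayed called and higher in replicate 1 under every scaling, filter and column tried. With all reads as the denominator the level was 1718 CPM for Mir26b, 13.9 for Mir26a-1, 8.85 for Mir26a-2 and 1740 for their sum, against 4890, 39.2, 25.0 and 4954 CPM over gene counts. The levels of the Mir26a genes still counted as unmoved here, which says little. The SD of Mir26a-1 (44.4 CPM) exceeds its mean, so no fall could leave the spread, and that of Mir26a-2 (21.3 CPM) is nearly as wide as its mean. Leaving out each replicate gave ranks of 30 to 39 for Mir26b, 210 to 345 for Mir26a-1 and 235 to 327 for Mir26a-2, and levels of 7.79 to 70.6 CPM for Mir26a-1 and 9.97 to 40.1 CPM for Mir26a-2, so a single library decides the level of each Mir26a gene. The number of seed matches in the hosts was 0 for the longer match and 2 for the shorter one, against 1 for TACTTGA. Construction of the match fixes only that the longer one cannot be more frequent, nor the shorter one rarer. The search over all annotated transcripts, that over every coding transcript and the calls of the gene lists under library totals were chosen after seeing the data. No genome of this build was searched, so windows describe annotated hairpins. No comparison of libraries was possible with 1 replicate left out. No paired analysis was possible because there is a single group.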

Other observations

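Genes with a mature strand found at more than 1 locus in the RefSeq table were read as a set, chosen after the values were seen. Of these genes, 48 were tested between the libraries, with 19 called higher in replicate 1 and 13 higher in replicate 2. This is 66.7% of the set, beside 56.0% of the genes at 1 locus and 56.5% of all tested genes. Their median log2 ratio was -0.030 and their median absolute ratio 0.41. The 398 tested genes whose mature strands each lie at 1 locus had a median of 0.097 and a median absolute ratio of 0.54. Differences over 2-fold were found for 18.8% of the first set, among them Mir26a-1 and Mir26a-2, and for 23.9% of the second. The sets differed in depth, with medians of 418 and 201.5 counts in total over both libraries.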
